A study of Mus musculus with 24 samples.

Results

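Levels of 32 genes that copy DNA in S phase were followed in mouse bone marrow on 24 two-colour Agilent arrays. They encode the MCM helicase (Mcm2, Mcm3, Mcm4, Mcm5, Mcm6, Mcm7) and its loaders and partners (Cdc6, Cdt1, Mcm10, Cdc45, Gins1, Gins2), the clamp and its loader (Pcna, Rfc3, Rfc4, Rfc5), primase and polymerase subunits (Pola1, Prim1, Pole, Pold1), enzymes of the lagging strand (Fen1, Lig1), makers of deoxynucleotides (Rrm1, Rrm2, Tyms, Tk1), E-type cyclins (Ccne1, Ccne2), and factors for chromatin and histone mRNA behind the fork (Hells, Uhrf1, Chaf1b, Slbp). The genes were chosen by name, each through its brightest probe. All 32 were among the 24391 genes tested, and the sample signal of all 32 was called well above background on all 24 arrays.

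Marrow came from female C57BL/6j mice aged 6 weeks, after an intraperitoneal injection at a labelled dose of 50 mg/kg. The vehicle was olive oil. The agents were TCDD (2,3,7,8-tetrachlorodibenzo-p-dioxin), DMBA (7,12-dimethylbenz(a)anthracene) and BP (benzo(a)pyrene), all ligands of the aryl hydrocarbon receptor. The wild-type (WT) groups were oil (3 arrays), BP at 6 h (2), DMBA at 12 h (3) and TCDD at 12 h (3). Marrow labelled Cyp1b1-null was taken after oil (2) or DMBA at 12 h (2), and marrow labelled Cyp1a1-null after oil (3) or BP at 12 h (3). Marrow labelled null for both genes, called double-null here, was taken after oil (1) or BP at 12 h (2). CYP1A1 and CYP1B1 are cytochrome P450 enzymes that oxidise BP and DMBA. Each sample was dyed with Cy3 and set against a Cy5 reference pooled from oil-treated WT marrow, and no dye was swapped. Each sample was a pool of 9 according to the labels, which do not say of what. Nothing in them tells whether replicates came from separate animals, so the p-values below measure the spread between these samples, which may be technical. Values are log2(Cy3/Cy5), called log ratios, in which 0 means the same level as in the reference.

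Before S phase, the origin recognition complex, CDC6 and CDT1 place rings of MCM proteins on DNA. CDC45 and the GINS complex then join each ring to make the working helicase, and the clamp PCNA, opened by the RFC complex, holds polymerases on the template. Many of these genes are switched on together at the end of G1 by E2F transcription factors. In marrow the dividing cells are mostly erythroid, myeloid and early B-lineage precursors, while mature neutrophils have left the cycle.

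The promoters of 4 helicase genes are shown because they went different ways in oil-treated marrow labelled Cyp1b1-null against WT: Mcm5, Mcm7 and Cdc45 were called lower, and Mcm6 was called higher only when WT oil replicate 1 was left out. The stretches are the 250 bases before the transcription start in RefSeq (GRCm38.p6), written along the gene's strand. They lie at chr8:75109259-75109508 (plus strand) for Mcm5, chr5:138171884-138172133 (minus strand) for Mcm7 (1 of 2 start sites in the table), chr16:18811973-18812222 (minus strand) for Cdc45 and chr1:128359706-128359955 (minus strand) for Mcm6. Capitals mark matches on either strand to the E2F-like motifs TTTCCCGC, TTTCGCGC, TTTGCCGC and TTTGGCGC, and matches may overlap.
Mcm5: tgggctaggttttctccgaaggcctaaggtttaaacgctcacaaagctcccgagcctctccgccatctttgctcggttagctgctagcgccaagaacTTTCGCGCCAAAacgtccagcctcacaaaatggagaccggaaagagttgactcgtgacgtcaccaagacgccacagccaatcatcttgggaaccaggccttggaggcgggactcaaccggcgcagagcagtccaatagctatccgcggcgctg
Mcm7: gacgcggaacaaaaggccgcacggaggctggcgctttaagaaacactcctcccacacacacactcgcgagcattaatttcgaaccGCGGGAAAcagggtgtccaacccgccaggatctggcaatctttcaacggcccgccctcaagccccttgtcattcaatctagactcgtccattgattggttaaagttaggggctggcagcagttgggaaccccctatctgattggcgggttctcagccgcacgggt
Cdc45: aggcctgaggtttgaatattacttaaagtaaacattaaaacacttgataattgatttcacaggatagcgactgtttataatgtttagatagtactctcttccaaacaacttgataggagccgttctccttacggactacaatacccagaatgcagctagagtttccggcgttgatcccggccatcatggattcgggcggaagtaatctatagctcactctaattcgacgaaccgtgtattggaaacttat
Mcm6: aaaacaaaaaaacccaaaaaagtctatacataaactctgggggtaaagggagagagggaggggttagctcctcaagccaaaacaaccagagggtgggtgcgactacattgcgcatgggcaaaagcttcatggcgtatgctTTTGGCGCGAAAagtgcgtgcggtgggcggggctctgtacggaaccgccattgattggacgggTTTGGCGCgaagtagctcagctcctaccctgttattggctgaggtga
Mcm6 held 3 matches, 2 of them overlapping, Mcm5 held 2 that overlap, Mcm7 held 1 and Cdc45 held none in this window. The other start site of Mcm7 had none. Promoters were in the table for 27 of the 32 genes, and those of Mcm4, Gins1, Gins2, Pole and Ccne2 were not. A match stood before at least 1 start site of 8 of the 27 (29.6%), namely Mcm5, Mcm6, Mcm7, Cdc6, Rfc3, Pola1, Hells and Uhrf1. Among all genes in that table, 583 of 27025 genes (2.16%) and 611 of 32851 promoters (1.86%) held one. The matches are letters in a window and say nothing of binding.

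On 23 of the 24 arrays the median log ratio of the 32 genes lay between -0.29 (Cyp1b1-null oil replicate 1) and 0.26 (double-null oil), close to the reference. WT oil replicate 1 stood apart at 2.82, with 31 of 32 genes above 0. On that array Mcm6 reached 5.19 and Uhrf1 5.17, while Tk1 stood at 0.14 and Mcm10 at -1.12. The median over all tested genes there was 0.04.

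**Figure D1:**
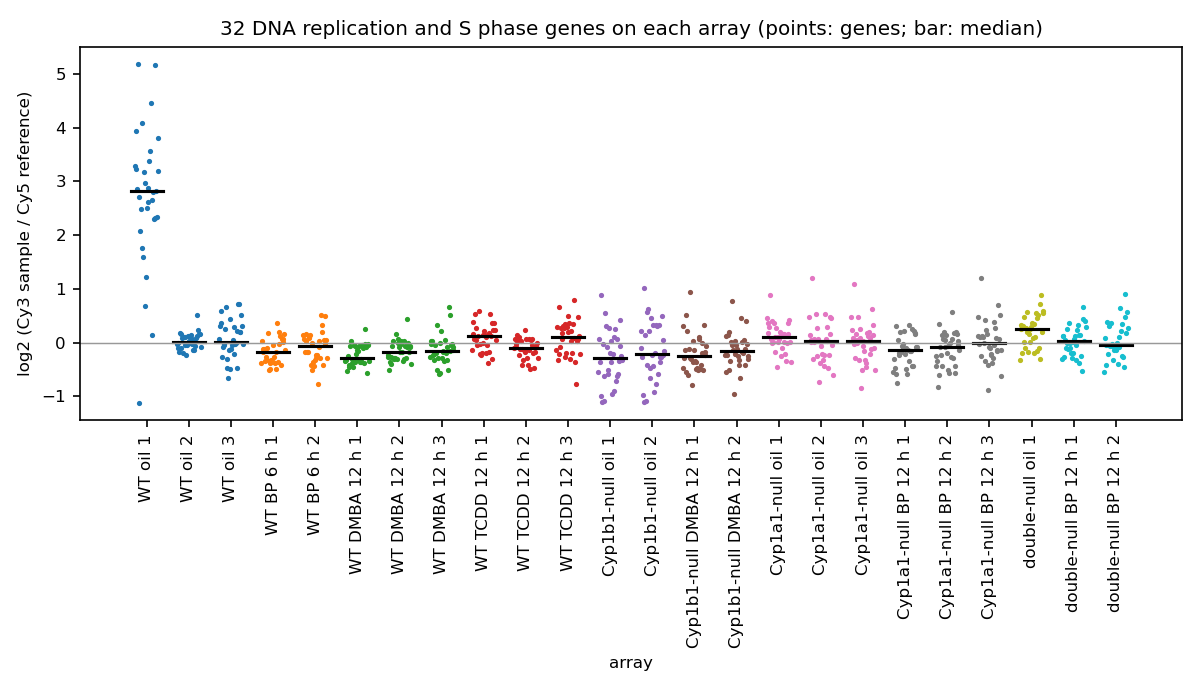
Log2 ratios of sample over reference for the 32 genes (points) on each of the 24 arrays, with their median (bar), coloured by group. WT oil replicate 1 has a median of 2.82, and the other 23 arrays lie between -0.29 and 0.26.

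The channels were also read separately, as percentiles of each gene's signal among all tested genes. The 32 genes had a median Cy3 percentile of 91.9 on WT oil replicate 1, within the range of 91.2 to 94.2 on the other arrays. Their median Cy5 percentile was 71.7, against 92.1 to 94.1. A list of 9 liver genes had a median percentile of 99.8 in the Cy5 channel and 94.6 in the Cy3 channel of that array, against at most 28.4 and 30.3 elsewhere. By their median the S phase genes were thus low in the reference of this array and at their usual rank in its sample. Some single genes stood lower in its Cy3 channel than on every other array. Among them were Cdc6 (75.0, against 80.4 or more), Fen1 (77.7, against 81.6 or more) and Mcm5 (92.8, against 94.4 or more), while others such as Mcm6 (99.3) did not. Every comparison with WT oil is therefore given with and without this array, and because the groups share 1 estimate of spread, so is every other comparison. Most of its values for the 32 genes lie far above those of the other WT oil arrays, which lowers most of their fitted changes against WT oil when it is kept and turns the sign of some.

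**Figure D2:**
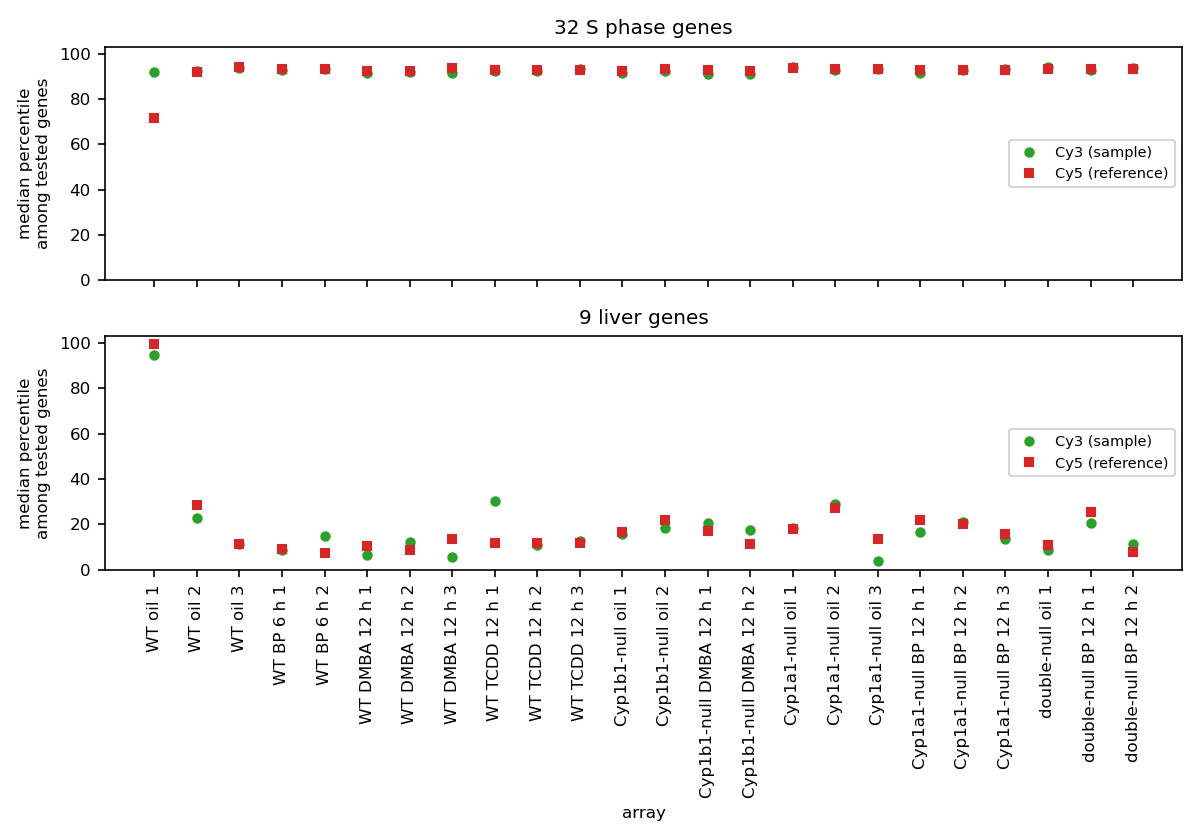
Median percentile of the 32 S phase genes (top) and of 9 liver genes (bottom) among all tested genes, in the Cy3 sample channel and the Cy5 reference channel of each array. On WT oil replicate 1 the S phase genes stand at 71.7 in Cy5 and 91.9 in Cy3, and the liver genes at 99.8 and 94.6.

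The labels were checked with the targeted genes. Cyp1a1 had log ratios of 1.71 and 1.94 after BP and 1.93, 1.76 and 1.91 after DMBA in WT marrow, against -0.07, 0.00 and 0.11 after BP in marrow labelled Cyp1a1-null. It was 0.18, 0.15 and 1.55 after TCDD, and 0.23 and 0.04 after DMBA in marrow labelled Cyp1b1-null. WT TCDD replicates 1 and 2 and both Cyp1b1-null DMBA arrays, which hold the low values among these, also had a high floor of Cy3 signal, with a 5th percentile of 7.71 to 8.88 on the log2 scale against 5.78 to 6.51 on the other 20. Cyp1b1 was 0.51 and 1.08 in marrow labelled Cyp1b1-null after oil, 1.57 in double-null marrow after oil and 1.57 and 1.11 after BP, against -0.06, -0.04 and 0.57 in WT oil. After DMBA it was 0.14 and 0.06 in marrow labelled Cyp1b1-null against 0.37, 0.46 and 0.48 in WT. The probe thus read lower than WT after DMBA and not after oil. Whether that probe lies inside the deleted part is not known here, so it checks nothing, and the Cyp1b1 genotypes rest on the labels alone.

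The 32 genes did not vary as one block. Over the 23 arrays without WT oil replicate 1, Mcm6 ran from a log ratio of -0.41 (WT DMBA 12 h replicate 1) to 1.21 (Cyp1a1-null BP 12 h replicate 3), the latter an upper limit because the reference spot was saturated there. Mcm5 spanned 1.57, from -0.99 to 0.58, although both proteins sit in the same ring. Fen1, the nuclease that trims Okazaki fragments, varied least, from -0.17 to 0.51. Among the ring genes Mcm7 had the lowest median over these arrays (-0.25). The spots of Mcm4, Mcm6 and Pcna were saturated in a channel on 6, 7 and 9 arrays, which limits their values there.

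**Figure D3:**
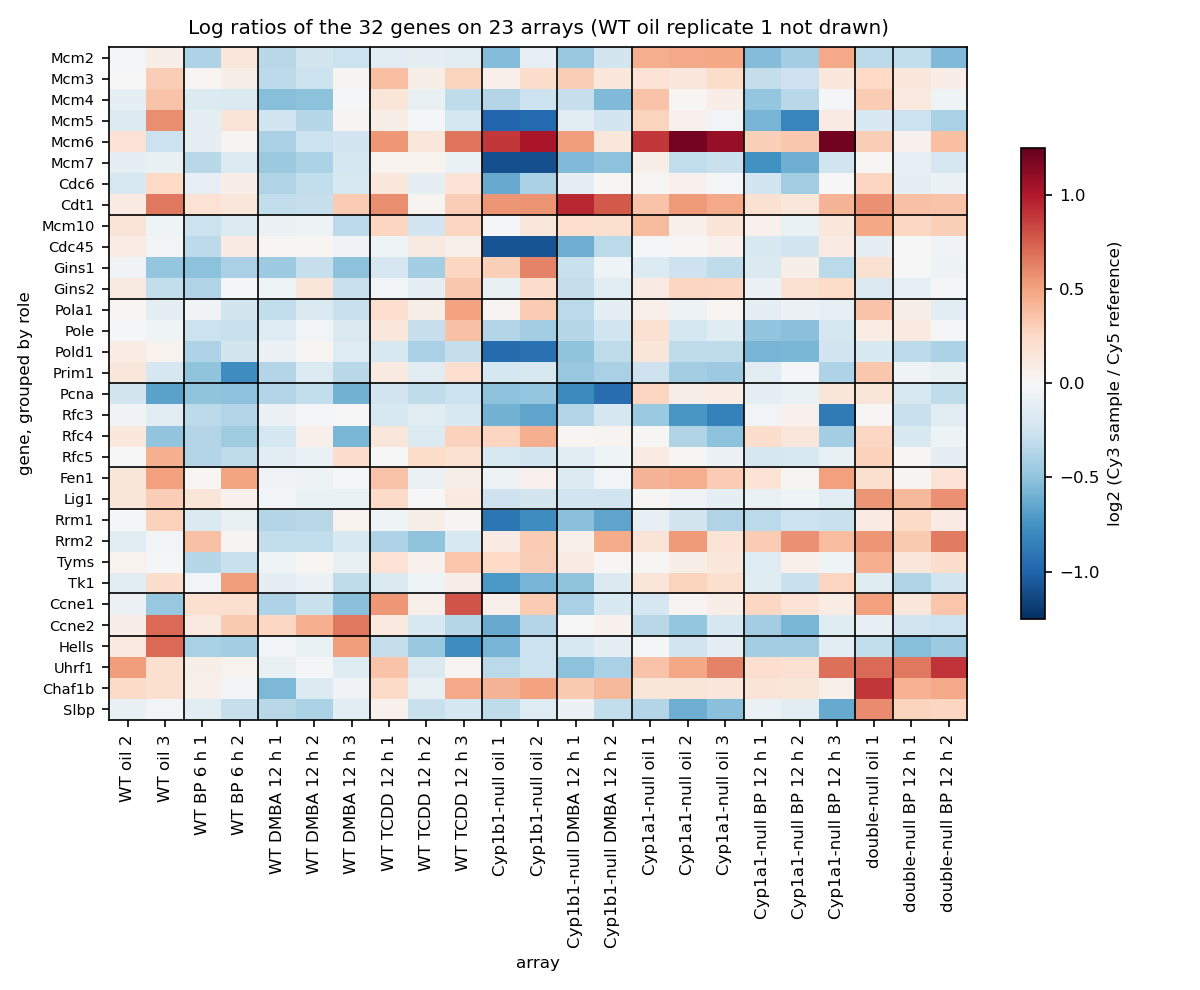
Log2 ratios of sample over reference (colour) of the 32 genes in rows, grouped by role, on the arrays in columns, grouped by genotype and treatment. Mcm5, Mcm7, Cdc45 and Pold1 are lowest in the Cyp1b1-null oil arrays, where Mcm6 stands at 0.88 and 1.02.

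Oil-treated marrow labelled Cyp1b1-null against WT compares the genotypes without an added ligand. Cdc45, Mcm5 and Mcm7 of the helicase, Pold1 of polymerase delta and Rrm1 of ribonucleotide reductase were lower with and without WT oil replicate 1. Mcm6 and Gins1 were higher once that array was set aside, and Rrm2, the small reductase subunit, was not called (0.29 ± 0.17 without it). Cdc45, the helicase partner, was -1.08 and -1.08 in the Cyp1b1-null arrays and 2.07, 0.09 and -0.03 in the WT oil arrays. All null values lay below all WT values, as for 18 of the 32 genes and 16.4% of all genes. Its change was -1.79 ± 0.40 with all arrays (SE, adjusted p = 0.00955 by limma with Benjamini-Hochberg adjustment) and -1.11 ± 0.14 without replicate 1 (adjusted p = 0.00023). As in any bulk sample, fewer cells of a type and less RNA per cell cannot be told apart.

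Rrm1, the large subunit of ribonucleotide reductase, was -0.90 and -0.78 in the Cyp1b1-null arrays against 3.56, -0.02 and 0.29 in WT oil. Its change was -2.12 ± 0.64 with all arrays (limma adjusted p = 0.0361) and -0.97 ± 0.14 without replicate 1 (adjusted p = 0.00049). The groups did not overlap. Pold1, the catalytic subunit of polymerase delta, was -0.96 and -0.93 against 2.87, 0.09 and 0.04. Its change was -1.94 ± 0.54 (limma adjusted p = 0.0242) and, without replicate 1, -1.01 ± 0.15 (adjusted p = 0.000601). Here too the groups did not overlap.

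Ccne2, an E-type cyclin that drives entry into S phase, was -0.63 and -0.37 against 2.30, 0.08 and 0.71. It changed by -1.53 ± 0.40 (limma adjusted p = 0.0191) and, without replicate 1, by -0.89 ± 0.20 (adjusted p = 0.00441), with no overlap. Tk1, thymidine kinase of the salvage route, did not stand apart on WT oil replicate 1. It was -0.72 and -0.58 against 0.14, -0.14 and 0.22, again with no overlap. Its change was -0.72 ± 0.18 (limma adjusted p = 0.0166) and -0.69 ± 0.19 without that array (adjusted p = 0.0146). With the sample channel alone, also without that array, the change was -0.12 ± 0.24 (limma adjusted p = 0.743). The Cy5 percentile of Tk1 was 95.1 and 94.4 in the Cyp1b1-null arrays, against 92 and 92.5 in WT oil replicates 2 and 3. Its Cy3 percentile was 91.5 and 91.4, against 91.1 and 93.4.

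With all arrays limma called 10 of the 32 genes (31.2%), all lower, against 15.5% of all genes in either direction and 6.91% lower. Besides the 5 above these were Mcm5, Mcm7, Hells, Rfc3 and Rfc5. The median over the 32 genes was -1.24, against 0.06 over all genes. Once WT oil replicate 1 was left out it called 14 (43.8%), against 29.7% of all genes. Of these 12 were lower, against 12.4% of all genes, and Mcm6 and Gins1 were higher, against 17.3%. The median was then -0.34, against 0.06. For the counts that follow, with single arrays left out, the share of all genes called is not given, so they compare fits only. With replicate 1 kept, the count was 19 without WT oil replicate 2, 16 without replicate 3, and 0 without Cyp1b1-null oil replicate 1 and 0 without Cyp1b1-null oil replicate 2.

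The MCM ring genes did not move alike. Mcm6 was 0.88 and 1.02 in the Cyp1b1-null arrays against 0.18 and -0.27 in WT oil replicates 2 and 3, a change of 0.99 ± 0.25 (limma adjusted p = 0.00879). It stood at 5.19 on WT oil replicate 1, and with that array the change was -0.75 ± 0.99 (limma adjusted p = 0.636). Mcm7 was -1.10 and -1.10 against 2.71, -0.11 and -0.09 (-1.93 ± 0.54, limma adjusted p = 0.0249, and -1.0 ± 0.15, 0.000602, without replicate 1). Both Mcm7 values of the null lay below all WT values. Mcm5 was -0.99 and -0.97 against 2.86, -0.17 and 0.58 (-2.07 ± 0.54, adjusted p = 0.0194, and -1.19 ± 0.25, 0.00325), also without overlap. Mcm2, Mcm3 and Mcm4 were not called in either fit, with changes of -0.35 ± 0.25, -0.02 ± 0.16 and -0.44 ± 0.21 without replicate 1. The promoter of Mcm6 held the most E2F-like matches of the 4 shown, 2 of them overlapping, and no link between matches and direction was tested.

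**Figure D4:**
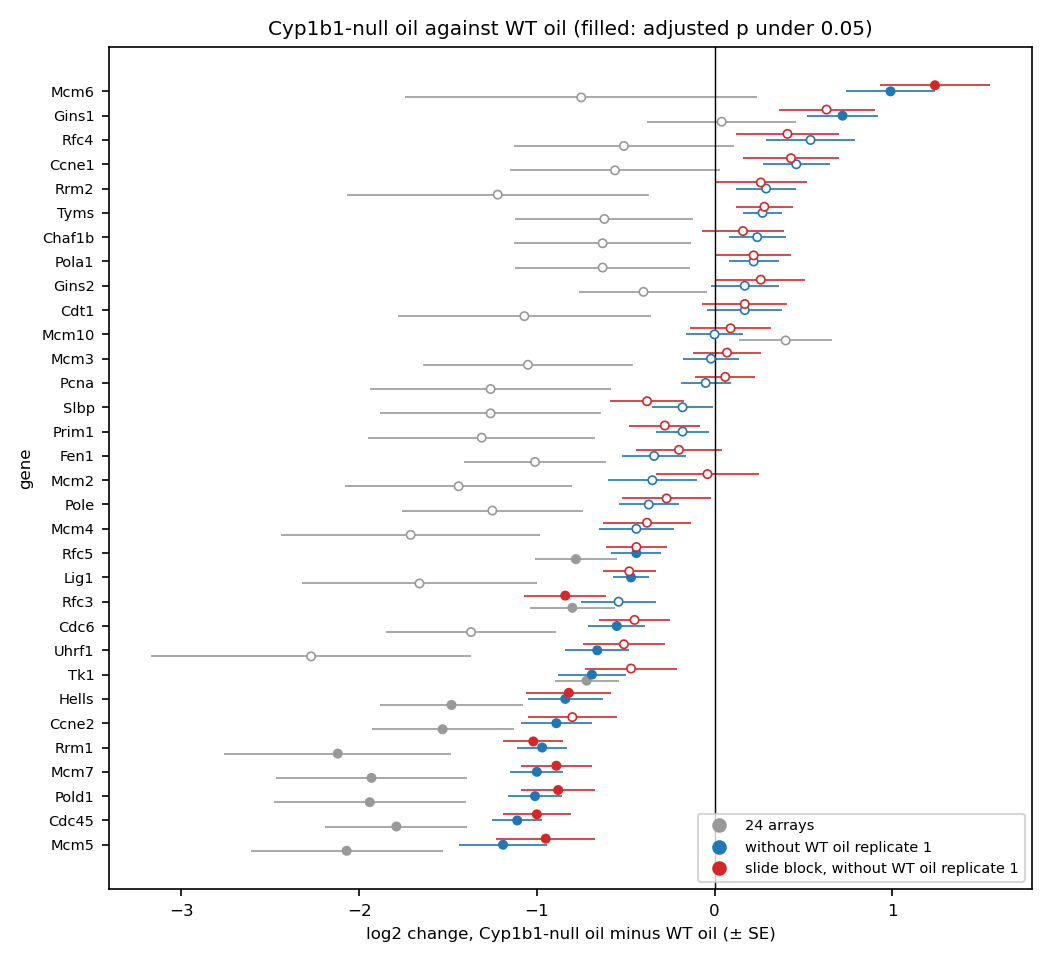
Log2 change (with SE) of each of the 32 genes between oil-treated marrow labelled Cyp1b1-null and WT, fitted on 24 arrays, without WT oil replicate 1, and with slide as a random block and without that array. Filled points have an adjusted p under 0.05, which holds for 10, 14 and 8 genes in the 3 fits.

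The groups shared no slide: WT oil lay on slides 1, 2 and 3 and Cyp1b1-null oil on slide 7. With slide as a random block (consensus correlation 0.821) limma called 0 of the 32 genes and 0 of all genes. At an unadjusted p under 0.05 that fit had 12 of the 32, against 2517 of 24379 genes. Leaving out WT oil replicate 1 as well (correlation 0.567) gave 8 calls, against 7.72% of all genes. Lower were Cdc45 (-1.0 ± 0.19, adjusted p = 0.00964), Rrm1 (-1.02 ± 0.17), Mcm7 (-0.89 ± 0.20), Pold1 (-0.88 ± 0.21), Mcm5 (-0.95 ± 0.28), Rfc3 (-0.84 ± 0.23) and Hells (-0.82 ± 0.24). Mcm6 was higher (1.24 ± 0.31, limma adjusted p = 0.0277).

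Slide 7 also held Cyp1a1-null BP replicates 1 and 2. Within it, the Cyp1b1-null oil arrays minus these gave -0.86 for Cdc45, -0.64 for Rfc3, -0.53 for Rrm1, -0.41 for Mcm7, -0.37 for Pold1, -0.28 for Mcm5, 0.00 for Hells and 0.63 for Mcm6. The median of the 32 genes there was -0.02, against -0.04 over all genes. The Cyp1a1-null BP arrays of that slide were themselves low in Mcm5 (-0.58 and -0.82), Mcm7 (-0.76 and -0.61) and Pold1 (-0.58 and -0.57).

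Setting aside a further array of either group along with WT oil replicate 1 left 1 array in that group, so no counts are given for those fits. Over all 19 alternatives run, these included, the change ran from -2.34 to -0.18 for Cdc45 and -2.41 to -0.50 for Mcm7. It ran from -2.42 to -0.32 for Pold1, -2.77 to -0.15 for Rrm1, -2.70 to -0.30 for Mcm5 and -1.74 to 1.24 for Mcm6. With the sample channel alone and without WT oil replicate 1, 3 genes were called: Mcm3 (-0.97 ± 0.26, limma adjusted p = 0.0329), Hells (-0.66 ± 0.18, 0.0368) and Mcm5 (-0.69 ± 0.21, 0.0489). On that scale Mcm7 was -0.59 ± 0.22, Cdc45 -0.42 ± 0.21, Pold1 -0.36 ± 0.24, Rrm1 -0.23 ± 0.18 and Mcm6 0.27 ± 0.32, none of them called. Rfc3 (0.36 ± 0.27) and Rfc5 (0.22 ± 0.18), called lower above, stood above 0 there and were not called. The Cy5 percentile of Rfc3 was 75.4 and 78.4 in the Cyp1b1-null oil arrays, against 68.2 and 66.4 in WT oil replicates 2 and 3. Its Cy3 percentile was 68.1 and 70.8, against 67.9 and 65.7. Over all 19 alternatives run the adjusted p ranged from 0.00023 to 0.631 for Cdc45, which was called in 14. The authors' deposited table gives this comparison as -1.17 for Cdc45, -1.07 for Mcm5, -0.88 for Mcm7, -0.85 for Rrm1, -0.83 for Pold1 and 0.69 for Mcm6.

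A second probe reported on several of these genes. The brighter and the other probe, fitted without WT oil replicate 1, gave -1.01 and -0.62 for Pold1, -0.89 and -1.32 for Ccne2, -0.66 and -0.56 for Uhrf1 and 0.72 and 0.24 for Gins1. These 4 pairs went the same way. So did those of Cdc6 (-0.55 and -0.17), Ccne1 (0.46 and 0.03), Mcm3 (-0.02 and -0.21), Pole (-0.37 and -0.16) and Rrm1 (-0.97 and -0.70). The 3 probes of Tyms gave 0.27, 0.11 and 0.08. Those of Mcm4 went opposite ways (-0.44 and 0.06). The second probes of Rrm1 and Pole were well above background on only 4 arrays, and that of Mcm4 on 6.

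Other genes of the cell cycle were also called in the same marrow, where 12.4% of all genes were called lower and 17.3% higher without WT oil replicate 1. Of 40 further replication factors, 14 were called lower and 4 higher in that fit, with a median of -0.22. The smallest adjusted p-values there belonged to Wdhd1 (-0.83 ± 0.15), which links polymerase alpha to the helicase, Orc5 (-0.77 ± 0.15), an origin recognition subunit, and Pole2 (-0.80 ± 0.16), a polymerase epsilon subunit. Of 27 genes of G1 to S control, 8 were lower and 1 higher (median -0.15), among them Ccna2 (-1.10 ± 0.15), the S phase cyclin A2, Rbl1 (-0.96 ± 0.19), a pocket protein that binds E2F, and Skp2 (-0.95 ± 0.19), which marks p27 for degradation. Of 26 genes of G2 and mitosis, 10 were lower and 2 higher (median -0.37), among them Nusap1 (-1.0 ± 0.16), Mad2l1 (-0.62 ± 0.12) and Ube2c (-0.76 ± 0.15), which act at mitosis. Of 12 genes of nucleotide supply 2 were lower, Rrm2b (-0.63 ± 0.18) and Samhd1 (-0.58 ± 0.18), a share near that of all genes. With all 24 arrays 13, 7, 3 and 2 genes of these lists were lower and none higher.

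Lineage markers differed between the same arrays. A list of 13 pro-B and pre-B genes had a median Cy3 percentile of 73.9 and 76.5 in the Cyp1b1-null oil arrays against 82.6 to 85.4 in WT oil. Of these 5 were called lower and 1 higher without WT oil replicate 1, and 5 lower with it. A list of 14 erythroid genes had 85.8 and 86.9 against 80, 88.9 and 91.5 in WT oil replicates 1, 2 and 3, with 6 called lower without replicate 1 (median change -0.51) and 4 with it. The 9 neutrophil granule precursor genes had median log ratios of 1.14 and 0.67, against 4.73, -0.04 and 0.21 in WT oil replicates 1, 2 and 3. Of these 4 were called higher without replicate 1 and 0 with it. Their median Cy3 percentiles were 99.9 and 99.6, against 99.2, 99.6 and 99.7, at the top of the signal. Whether saturation limits their log ratios was not tested. The 8 monocyte and macrophage genes had median log ratios of 0.65 and 0.60 against 0.02, 0.14 and 0.17, with 3 called higher without replicate 1 and 2 with it. The part of these cells in the lower S phase genes was not tested.

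DMBA in marrow labelled Cyp1b1-null addresses how the carcinogen acts there without this enzyme. Cdc45, Mcm7 and Pold1, which were low after oil, were higher after DMBA but stayed below 0. With all arrays limma called none of the 32 genes against Cyp1b1-null oil (0 at an unadjusted p under 0.05), against 0.0246% of all genes. Without WT oil replicate 1, which is in neither group but widens the shared spread, it called 3 (9.38%), close to the 7.52% of all genes. The median was 0.05, against -0.01 over all genes.

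Cdc45 was -0.61 and -0.34 after DMBA against -1.08 and -1.08 after oil (0.60 ± 0.43, limma adjusted p = 0.646, and 0.60 ± 0.14, 0.0166, without replicate 1). Mcm7 was -0.55 and -0.51 against -1.10 and -1.10 (0.57 ± 0.15, limma adjusted p = 0.033 without replicate 1), and Pold1 -0.50 and -0.32 against -0.96 and -0.93 (0.53 ± 0.15, 0.0439). None of the 3 overlapped between groups, which with 2 arrays against 2 also held for 35.1% (higher) and 37.7% (lower) of all genes. Gins1, a GINS subunit, was -0.28 and -0.05 after DMBA against 0.30 and 0.62 after oil (-0.63 ± 0.20, limma adjusted p = 0.0605 without replicate 1), and Tk1 -0.50 and -0.18 against -0.72 and -0.58 (0.31 ± 0.19, 0.368). Neither passed the test. The DMBA arrays filled slide 8 and the oil arrays lay on slide 7, so slide and treatment cannot be told apart. With slide as a random block none of the 32 genes was called, with or without WT oil replicate 1. Both DMBA arrays also had the high floor of Cy3 signal given above (7.71 and 8.01, against 6.51 and 5.86 after oil). Their log ratios over all probes had an SD of 0.23 and 0.19, against 0.46 and 0.46. The part of this in the smaller distances from 0 was not tested. Over 15 alternatives the change turned in direction in 2 for Cdc45 (lowest -0.07), in 2 for Pold1 (-0.26) and in none for Mcm7.

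Against WT marrow after DMBA, marrow labelled Cyp1b1-null after DMBA had no member called with all arrays (0 at an unadjusted p under 0.05, 0.102% of all genes called) and 2 called without WT oil replicate 1 (1.59% of all genes). Cdt1, the licensing factor, was 0.94 and 0.77 in the null arrays against -0.31, -0.29 and 0.32 in WT (0.95 ± 0.19, limma adjusted p = 0.0181 without replicate 1, and 0.95 ± 0.71 with it). Chaf1b, a subunit of the chromatin assembly factor CAF-1, was 0.33 and 0.41 against -0.56, -0.17 and -0.04 (0.63 ± 0.14, limma adjusted p = 0.0345). Neither gene overlapped between the groups, and 23.7% of all genes lay wholly higher in the same way. Mcm10, which helps start the helicase, was 0.21 and 0.20 against -0.07, -0.06 and -0.33 and was not called (0.35 ± 0.15, adjusted p = 0.357). With the sample channel alone, also without replicate 1, 6 members were called, all lower, and Cdt1 (0.00) and Chaf1b (0.34) were not among them. The null arrays lay on slide 8 and the WT arrays on slides 2 and 5, so slide and genotype cannot be told apart. With slide as a random block none of the 32 genes was called, with or without replicate 1. Both null arrays had the high floor of Cy3 signal given above (7.71 and 8.01), whose part was not tested.

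The difference of the DMBA responses, Cyp1b1-null minus WT, was tested directly. With all arrays limma called none of the 32 genes and 0.0082% of all genes. At an unadjusted p under 0.05 it had 7 of the 32, against 2895 of all 24391 genes. With WT oil replicate 1 left out it called Mcm7 alone (0.83 ± 0.21, adjusted p = 0.0413), against 3.05% of all genes. With all arrays the difference for Mcm7 was 1.76 ± 0.76 (limma adjusted p = 0.388). Mcm5 (1.20 ± 0.34), Cdc6 (0.79 ± 0.21) and Cdc45 (0.63 ± 0.19) had limma adjusted p-values of 0.062, 0.0527 and 0.0703 without that array. Leaving out WT oil replicate 2 instead gave 1 call, Mcm5.

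In WT marrow at 12 h after DMBA most S phase genes stood slightly below oil-treated marrow, and none passed the test. In the fit without WT oil replicate 1, 28 of 32 genes had a change below 0 with a median of -0.23, against 45.1% of all genes and a median of 0.02. With all arrays 31 of 32 were below 0 and the median was -1.15, and with the sample channel alone on all arrays the median was -0.06. Limma called none of the 32 in either fit, against 0% and 0.0984% of all genes with and without replicate 1. At an unadjusted p under 0.05 these fits had 23 and 9 of the 32, against 3017 and 2194 of all 24391 genes. All DMBA values lay below all oil values for 11 of the 32 genes, against 4.2% of all genes, and without replicate 1 for 12, against 8.78%. Leaving out WT oil replicate 2, which keeps replicate 1, gave 10 calls.

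Chaf1b was -0.56, -0.17 and -0.04 after DMBA against 2.83, 0.24 and 0.20 after oil, with no overlap (-1.35 ± 0.45, limma adjusted p = 0.399, and -0.48 ± 0.14, 0.255, without replicate 1). Fen1 was -0.04, -0.06 and -0.02 against 2.34, 0.15 and 0.51, also with no overlap (-1.04 ± 0.36, limma adjusted p = 0.399, and -0.37 ± 0.16, 0.502). Rfc5, a clamp loader subunit, was -0.13, -0.08 and 0.22 against 1.23, 0.00 and 0.44, and overlapped (-0.55 ± 0.20, limma adjusted p = 0.399, and -0.21 ± 0.13, 0.698). Slide 2 held DMBA replicates 1 and 2 and WT oil replicate 2. Within it 30 of 32 genes were lower after DMBA, with a median difference of -0.21 (range -0.60 to 0.27), against 52.1% of all genes and a median of -0.01.

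BP in WT marrow was sampled at 6 h, when no other agent was. When WT oil replicate 1 was left out, 28 of 32 genes had a change below 0 (median -0.18), against 47.3% of all genes (median 0.02). With it 30 of 32 were below 0 and the median was -1.13. Limma called none with all arrays (0.73% of all genes called) and 3 without replicate 1 (9.38%, against 3.87%), all lower. At an unadjusted p under 0.05 the fit of all arrays had 11 of the 32, against 3800 of all 24391 genes.

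Hells, a chromatin remodeller of the SNF2 family, was -0.41 and -0.42 after BP against 2.32, 0.12 and 0.71 after oil (-1.46 ± 0.40, limma adjusted p = 0.0987, and -0.83 ± 0.21, 0.0381, without replicate 1). Prim1, the catalytic subunit of primase, was -0.50 and -0.78 against 3.38, 0.14 and -0.21 (-1.75 ± 0.64, limma adjusted p = 0.219, and -0.61 ± 0.15, 0.0359). Rfc5 was -0.37 and -0.32 against 1.23, 0.00 and 0.44 (-0.90 ± 0.23, limma adjusted p = 0.0749, and -0.56 ± 0.14, 0.0346). None of the 3 overlapped between groups, as for 11.7% of all genes that lay wholly lower. Leaving out WT oil replicate 2 or 3 instead gave 3 and 4 calls, and slide as a random block gave none, with or without replicate 1. Over 15 alternatives the change turned in direction in 2 for Prim1 (highest 0.13) and in none for Hells or Rfc5 (highest -0.31 and -0.04).

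Few other cycle genes were called after BP without WT oil replicate 1, when 3.87% of all genes were. There 1 of 40 replication factors was called lower, Pole2 (-0.69 ± 0.16). In G1 to S control 2 of 27 were lower, E2f3 (-0.96 ± 0.14) and E2f6 (-0.64 ± 0.14), both E2F family factors, and 1 higher, Cdkn1a (1.03 ± 0.26), which encodes the kinase inhibitor p21. In G2 and mitosis 3 of 26 were lower, Cdk1 (-0.68 ± 0.13), Cenpf (-0.52 ± 0.13) and Mad2l1 (-0.47 ± 0.12). In nucleotide supply 1 of 12 was lower, Rrm2b (-0.79 ± 0.18). With all arrays E2f3 was the 1 gene of these lists called.

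At 12 h after TCDD single genes differed from oil in opposite directions when WT oil replicate 1 was left out. Without WT oil replicate 1, 17 of 32 genes had a change below 0 and the median was -0.04, against 47.3% of all genes and 0.02. With all arrays 31 of 32 were below 0 and the median was -0.91. Hells was -0.30, -0.47 and -0.78 after TCDD against 2.32, 0.12 and 0.71 after oil, with no overlap, as for 10.6% of all genes that lay wholly lower. It was the 1 gene called with all arrays (-1.56 ± 0.36, limma adjusted p = 0.0369, against 2.21% of all genes) and was also called without replicate 1 (-0.93 ± 0.19, adjusted p = 0.0163).

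Ccne1, the other E-type cyclin, was 0.54, 0.06 and 0.79 after TCDD against 2.80, -0.07 and -0.47 after oil. It was the other gene called without replicate 1 (0.73 ± 0.18, limma adjusted p = 0.0263, with 6.17% of all genes called), and its change was -0.29 ± 0.53 (adjusted p = 0.79) with it. Without replicate 1 its groups did not overlap, and with it they did. Ccne2 was 0.12, -0.19 and -0.36 against 2.30, 0.08 and 0.71 (-0.54 ± 0.18, limma adjusted p = 0.0837 without replicate 1), and Pold1 -0.20, -0.41 and -0.30 against 2.87, 0.09 and 0.04 (-0.37 ± 0.14, 0.112). Neither passed the test. Leaving out TCDD replicate 1, 2 or 3 gave 0 calls each time, while leaving out WT oil replicate 2 or 3 gave 16 and 3. TCDD arrays were alone on slide 6, so slide and treatment cannot be told apart. With slide as a random block none of the 32 was called, with or without WT oil replicate 1. Over 16 alternatives the change of Ccne1 had the opposite sign to the fit of all arrays in 4, and that of Hells in 0. TCDD replicates 1 and 2 also had the high floor of Cy3 signal given above (8.16 and 8.88), whose part was not tested.

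DMBA and TCDD were compared at the same labelled dose and time. The labels give 50 mg/kg for every group, oil included, so whether the doses were equal is not known here. The median difference, DMBA minus TCDD, was -0.19, with 27 of 32 genes below 0, against 0.01 and 48.3% over all genes. Limma called none of the 32 with all arrays (0 at an unadjusted p under 0.05, 0.648% of all genes called), and 6 without WT oil replicate 1 (18.8%, against 6.29%). With slide as a random block none was called, and the median was 0.28 with all arrays and -0.21 without replicate 1, so its direction turned. No slide held both agents.

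The E-type cyclins differed in opposite directions. Ccne1 was -0.39, -0.28 and -0.52 after DMBA against 0.54, 0.06 and 0.79 after TCDD (-0.86 ± 0.16, limma adjusted p = 0.00402 without replicate 1, and -0.86 ± 0.53 with it). Ccne2 was 0.26, 0.44 and 0.66 against 0.12, -0.19 and -0.36 (0.59 ± 0.16, limma adjusted p = 0.0401). Hells was also higher after DMBA, at -0.03, -0.08 and 0.52 against -0.30, -0.47 and -0.78 (0.65 ± 0.17, limma adjusted p = 0.0328). None of these 3 overlapped, and 17.4% of all genes lay wholly higher and 14.5% wholly lower. The remaining genes were lower after DMBA. Pola1, the catalytic subunit of polymerase alpha, was -0.31, -0.18 and -0.28 against 0.21, 0.07 and 0.50 (-0.51 ± 0.12, limma adjusted p = 0.0138), and Mcm6 -0.41, -0.27 and -0.24 against 0.54, 0.14 and 0.67 (-0.76 ± 0.21, 0.0396). Chaf1b was -0.56, -0.17 and -0.04 against 0.24, -0.09 and 0.47 (-0.46 ± 0.13, limma adjusted p = 0.0416), and was the 1 gene of the 6 whose arrays overlapped.

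Marrow labelled Cyp1a1-null after oil differed from WT in few of the genes. Of the 32 genes 16 had a change below 0 without WT oil replicate 1, and the median was 0.00, against 46.4% of all genes and 0.03. With all arrays 30 of 32 were below 0 and the median was -0.93. Limma called 2 with all arrays (with 3.59% of all genes called) and 3 without replicate 1 (9.38%, against 7.62%), and Ccne2 was in both. It was -0.35, -0.48 and -0.21 in the null arrays against 2.30, 0.08 and 0.71 (-1.37 ± 0.36, adjusted p = 0.0442, and -0.74 ± 0.18, 0.0241, without replicate 1), with no overlap, as for 10.1% of all genes that lay wholly lower.

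Rfc3, a clamp loader subunit, was -0.46, -0.73 and -0.84 against 0.68, -0.04 and -0.13 (-0.85 ± 0.21, limma adjusted p = 0.0411, and -0.60 ± 0.19, 0.0675, without replicate 1). Hells was -0.01, -0.24 and -0.12 against 2.32, 0.12 and 0.71 (-1.17 ± 0.36, limma adjusted p = 0.0748, and -0.53 ± 0.19, 0.0989). Both were lower without overlap, and Hells did not pass the test. Mcm6 was 0.88, 1.20 and 1.09 against 5.19, 0.18 and -0.27 (1.10 ± 0.23, limma adjusted p = 0.0112 without replicate 1, and -0.65 ± 0.89, 0.681, with it), and Pcna, the clamp, 0.27, 0.07 and 0.09 against 3.18, -0.23 and -0.67 (0.59 ± 0.13, 0.0125, and -0.62 ± 0.61, 0.547). For both the reference spot was saturated on all 3 null arrays, so their log ratios there are upper limits. With the sample channel alone and without replicate 1 the change was 0.49 for Mcm6 and -0.06 for Pcna (limma adjusted p = 0.389 and 0.912).

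The count in this comparison rested on single arrays. It was 0 without Cyp1a1-null oil replicate 1, 2 or 3, 18 without WT oil replicate 2 and 11 without WT oil replicate 3. With slide as a random block it was 0, also without WT oil replicate 1. All 3 null arrays lay on slide 9, which held no WT array.

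BP at 12 h in marrow labelled Cyp1a1-null gave values that differed between the arrays of slides 7 and 9. Over the 3 BP arrays 25 of 32 genes had a change below 0 with a median of -0.14, against 43.1% of all genes and 0.04. Limma called none with all arrays (0 at an unadjusted p under 0.05, 0.0328% of all genes called) and none without WT oil replicate 1 (9 at an unadjusted p under 0.05, 0.156%). The unadjusted counts over all 24391 genes were 3681 and 6048 in these fits. BP replicate 3 shared slide 9 with the 3 oil arrays, and within that slide the median difference was -0.04, with a range of -0.20 to 0.20. BP replicates 1 and 2, on slide 7, differed from the oil arrays by a median of -0.23, from -0.95 for Mcm2 to 0.69 for Rfc3.

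Mcm2, chosen here after its values were seen, shows the split. It was -0.54, -0.43 and 0.47 in BP replicates 1, 2 and 3 against 0.45, 0.47 and 0.48 after oil. Mcm5 was -0.58, -0.82 and 0.10 against 0.28, 0.05 and -0.03 (-0.54 ± 0.48, limma adjusted p = 0.675). For both genes BP replicates 1 and 2 lay below every oil array and BP replicate 3 did not. Rfc3 was -0.03, 0.05 and -0.88 against -0.46, -0.73 and -0.84 (0.39 ± 0.21, limma adjusted p = 0.413), and without BP replicate 3 it was the 1 gene called (0.69 ± 0.18, limma adjusted p = 0.0153). Over its 17 alternatives that adjusted p ranged from 0.0153 to 1. Tk1 was -0.15, -0.28 and 0.27 against 0.15, 0.28 and 0.20 (-0.26 ± 0.16, limma adjusted p = 0.478).

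**Figure D5:**
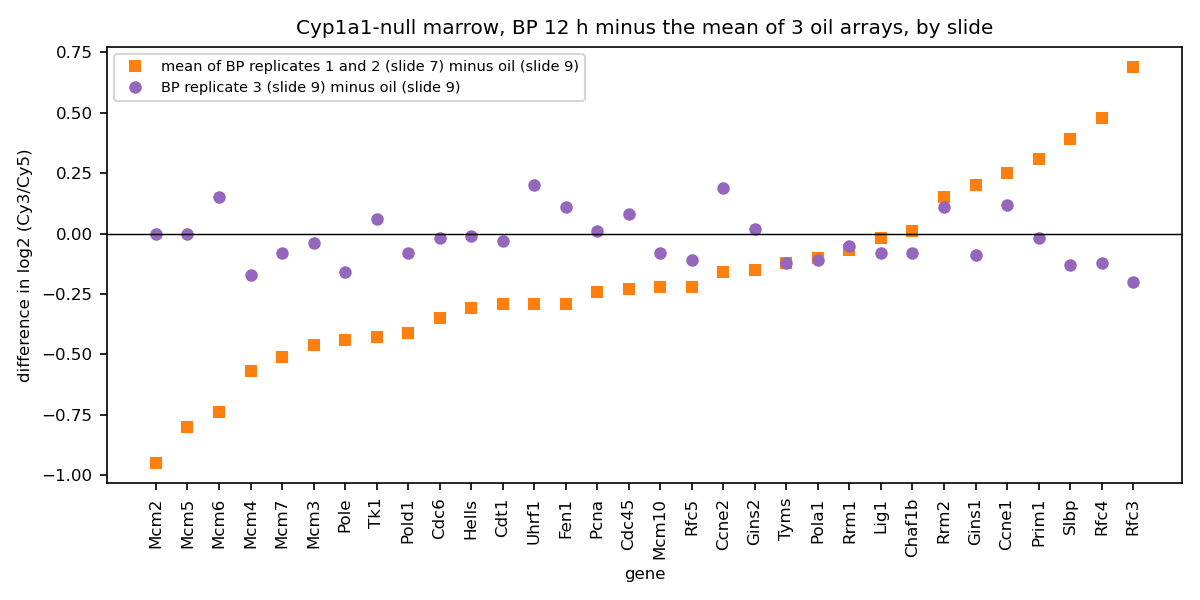
Difference in log2 ratio between BP-treated and oil-treated marrow labelled Cyp1a1-null for each of the 32 genes, for BP replicates 1 and 2 on slide 7 and for BP replicate 3 on slide 9, both against the mean of the 3 oil arrays on slide 9. The slide 7 values run from -0.95 to 0.69 and the slide 9 values from -0.20 to 0.20.

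The double-null groups all lay on slide 10, with 1 oil array, whose spread was taken from the other groups. Against WT oil, 22 of 32 genes were above 0 without WT oil replicate 1 (median 0.20, against 0.05 over all genes) and 1 of 32 with it (median -0.78). Limma called none with all arrays (1.53% of all genes called) and Pcna alone without replicate 1 (3.12% of the 32, against 6.04%). At an unadjusted p under 0.05 the fit of all arrays had 3 of the 32, against 4258 of 24379 genes. Pcna was 0.15 against 3.18, -0.23 and -0.67 (0.61 ± 0.17, adjusted p = 0.0456 without replicate 1, and -0.61 ± 0.86, 0.726, with it). Without WT oil replicate 2, which keeps replicate 1, 2 genes were called, both lower.

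Hells was -0.31 against 2.32, 0.12 and 0.71 (-1.36 ± 0.51, limma adjusted p = 0.189) and Ccne2 -0.10 against 2.30, 0.08 and 0.71 (-1.13 ± 0.50, 0.26). Mcm10 was 0.48 against -1.12, 0.16 and -0.05 (0.81 ± 0.33, limma adjusted p = 0.228). None of the 3 passed the test in either fit. Each single null value lay outside the WT range, which also held for 25.8% (higher) and 20.9% (lower) of all genes. The Mcm6 spot was saturated in the sample channel on all 3 double-null arrays, and no change is given for it.

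BP at 12 h in double-null marrow was measured within slide 10. There 28 of 32 genes were lower after BP, with a median of -0.17 and a range of -0.43 to 0.12, against 50.3% of all genes and a median of 0.00. Limma called none of the 32 with all arrays or without WT oil replicate 1, against 0.283% and 0.517% of all genes. At an unadjusted p under 0.05 these fits had 0 and 4 of the 32, against 1505 and 2501 of 24379 genes. Rfc5 was 0.01 and -0.12 after BP against 0.29 after oil (-0.35 ± 0.30, limma adjusted p = 1). Rfc3 was -0.28 and -0.14 against 0.01 (-0.22 ± 0.32, limma adjusted p = 1) and Tk1 -0.38 and -0.25 against -0.15 (-0.17 ± 0.24, 1). In all 3 both BP values lay below the oil value, as for 23 of the 32 genes and 36.4% of all genes.

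After BP at 12 h, double-null and Cyp1a1-null marrow differed by a median of 0.11 over the 32 genes, with 24 above 0, against -0.04 over all genes. Limma called none with all arrays (0 at an unadjusted p under 0.05, 0.172% of all genes called), and Lig1 alone without WT oil replicate 1 (with 3.65% of all genes called). Lig1, the ligase that seals Okazaki fragments, was 0.41 and 0.57 in double-null marrow against -0.08, -0.05 and -0.13 (0.58 ± 0.09, limma adjusted p = 0.00251 without replicate 1, and 0.58 ± 0.66, 0.811, with it), with no overlap, as for 14.2% of all genes that lay wholly higher. It was 0.55 in double-null marrow after oil. Over 16 alternatives the change of Lig1 ran from 0.45 to 0.66, and it was called in 1. No slide held both groups. With slide as a random block none of the 32 genes was called, with or without WT oil replicate 1. Tk1 (-0.26 ± 0.18), Mcm10 (0.24 ± 0.26) and Pole (0.46 ± 0.51) were not called.

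The difference of the BP responses, double-null minus Cyp1a1-null, was called for none of the 32 genes with all arrays (0 at an unadjusted p under 0.05 by limma, 0.135% of all genes called) or without WT oil replicate 1 (2 at an unadjusted p under 0.05, 0.209%). The unadjusted counts over 24379 genes were 1733 and 3111 in these fits. Rfc3 (-0.61 ± 0.39), Rfc4 (-0.66 ± 1.01) and Prim1 (-0.61 ± 1.04) had the smallest adjusted p with all arrays. The Cyp1a1-null side of this difference carries the split between slides 7 and 9.

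Other cycle genes were counted by sign in the DMBA and BP comparisons. The change after DMBA in WT marrow, fitted without WT oil replicate 1, was below 0 for 25 of 26 genes of G2 and mitosis (median -0.22), 35 of 40 further replication factors (-0.14), 21 of 27 genes of G1 to S control (-0.09) and 9 of 12 of nucleotide supply (-0.07), with none called, against 45.1% of all genes. After BP in double-null marrow it was below 0 for 22 of 26, 31 of 40, 19 of 27 and 10 of 12 in the same order, with none called, against 50.3% of all genes. After BP in WT marrow the counts were 19 of 26, 29 of 40, 17 of 27 and 11 of 12, against 47.3%, and after BP in Cyp1a1-null marrow 19 of 26, 21 of 40, 15 of 27 and 6 of 12, against 43.1%. After DMBA in Cyp1b1-null marrow they were 9 of 26, 17 of 40, 8 of 27 and 7 of 12, against 51.5%, so most genes of G2 and mitosis and of G1 to S control were above 0 there.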

How the data were processed

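The deposited scanner files hold mean spot intensity and median local background intensity in both channels; per the file headers they came from Feature Extraction 9.1.3.1 (20 arrays) or 10.7.3.1 (4 arrays). The authors' deposited table holds log2 differences for 9 comparisons, with scaling and centring not given in the sources used here. 41174 of its 43532 rows matched a probe, its column medians ran from -0.06 to 0.05, and its values ran in the direction used here, with a correlation across probes (not independent replicates) of 0.20 to 0.82 with differences from all arrays and 0.62 to 0.82 without WT oil replicate 1. The submitters' processing notes name limma, with no version in the sources used here.

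Here intensities were background-corrected with normexp (offset 50), normalized by loess within each array and averaged over spots of a probe, without control spots and outlier flags. A probe had to be well above background in Cy3 on at least 3 arrays, and each gene was read through its brightest probe. One limma fit (R 4.3.3, limma 3.58.1, statmod 1.5.0, data.table at 1.17.8) over all 10 groups tested 12 group comparisons and 2 differences of responses, with Benjamini-Hochberg adjustment over all genes of a comparison and a threshold of 0.05. The number of arrays, 1 to 3 a group, limits the precision. The fit was tested on simulated data. Values in every array are given for the 3 members with the smallest adjusted p of a comparison and, where 6 or fewer were called in the fit with or without WT oil replicate 1, for all of those. Members just beyond that rule (Mcm5, Mcm6 and Mcm7 in oil-treated Cyp1b1-null marrow) were added after their values were seen. The members and lists were chosen with earlier results of these data known. Same-numbered arrays of different groups did not deviate together (correlations of -0.25 to 0.34), so replicate numbers were not taken as pairs.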

Additional observations from a re-analysis of the deposited data

Results flagged for a closer look

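The response of Mcm7 to DMBA differed between marrow labelled Cyp1b1-null and WT marrow by 0.83 ± 0.21 on the log2 scale when WT oil replicate 1 was left out (limma adjusted p = 0.0413), as a test of the difference itself. With all arrays it was 1.76 ± 0.76 (limma adjusted p = 0.388), and with slide as a random block and without that array 0.71 ± 0.26 (adjusted p = 0.496). Over its 20 alternatives the difference ranged from 0.12 to 2.24 and the adjusted p from 0.0413 to 1. The Cyp1b1-null DMBA arrays in it had a high floor of Cy3 signal (5th percentile 7.71 and 8.01 on the log2 scale), whose part was not tested.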

How the results depend on the processing

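Counts are members called by limma, with the value from all 24 arrays first. For fits with single arrays left out or with other settings, here and above, the share of all genes called is mostly not given. Those counts compare fits and are not set against other genes. Cyp1a1-null oil against WT oil (2, both lower) became 2, both higher, with Cy3 alone, 1 with Cy3 alone and without WT oil replicate 1, 0 with the processed signals, 0 with no background subtraction, 0 with slide as a random block and 0 with that block and without WT oil replicate 1. Without WT oil replicate 1 alone it was 3, with 2 higher and 1 lower. Cyp1b1-null oil against WT oil (10) became 0 with Cy3 alone, 3 also without WT oil replicate 1, and 0 with the slide block. TCDD against oil (1) became 0 with Cy3 alone, 2 also without WT oil replicate 1, and 0 with the slide block, with or without that array. Cy3 alone gave 4 calls for Cyp1b1-null against WT after DMBA and 6 for DMBA against TCDD (both 0 before), and without WT oil replicate 1 6 and 6, with 1 for double-null against Cyp1a1-null after BP. The cause of these changes was not tested.

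Leaving out single arrays gave 0 to 18 calls for Cyp1a1-null oil, 0 to 19 for Cyp1b1-null oil, 0 to 16 for TCDD, 0 to 10 for DMBA, 0 to 4 for BP and 0 to 2 for double-null oil, each against WT oil. It gave 0 to 3 for Cyp1b1-null DMBA against oil, 0 to 2 for Cyp1b1-null against WT after DMBA, 0 to 6 for DMBA against TCDD, 0 to 1 for Cyp1a1-null BP against oil, 0 to 0 for double-null BP against oil, 0 to 1 for double-null against Cyp1a1-null after BP, 0 to 1 for the difference of DMBA responses and 0 to 0 for that of BP responses.

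With the replicate number as a block the count for Cyp1a1-null oil was 1, and for the other 13 comparisons it was the same as without the block. Single members turned direction with a call on 1 side. Without WT oil replicate 1 these were Ccne1 after TCDD (0.73), Mcm6 (1.10) and Pcna (0.59) in Cyp1a1-null oil, and Pcna in double-null oil (0.61). Without WT oil replicate 3 the same changes were -0.90, -1.63, -1.33 and -1.32. With Cy3 alone they were Rfc3 in Cyp1a1-null oil (0.19, and 0.15 also without WT oil replicate 1) and Tk1 in Cyp1b1-null oil (0.11). Fits on Cy3 alone without WT oil replicate 1, values within slides and the removal of a further array were chosen after seeing the data.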

Other observations

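Among cycle genes outside the 32, marrow labelled Cyp1b1-null after DMBA had 6 of 27 genes of G1 to S control higher than after oil and none lower without WT oil replicate 1 (limma with Benjamini-Hochberg adjustment, 7.52% of all genes called), among them Skp2 (0.79 ± 0.19), Ccnd3 (1.07 ± 0.26), which encodes cyclin D3, and Rbl1 (0.76 ± 0.19). In oil-treated double-null marrow 4 of 26 genes of G2 and mitosis were higher than in WT and none lower (6.04% of all genes called), among them Prc1 (0.82 ± 0.17), a spindle midzone protein, Ccnb1 (0.80 ± 0.19), which encodes cyclin B1, and Cenpe (0.87 ± 0.22), a kinetochore motor. These values rest on the fit without WT oil replicate 1 and, for double-null oil, on 1 array. In that fit 821 of 24391 genes were called higher in the first comparison and 749 of 24379 in the second. The Cyp1b1-null DMBA and oil arrays lay on slides 8 and 7, so slide and treatment cannot be told apart. With slide as a random block as well, 44 genes were called there, all lower. Both DMBA arrays also had the high floor of Cy3 signal given above, whose part was not tested.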
